A study of Mus musculus with 6 samples.

Results

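The machinery that receives and processes the Nodal signal was examined as 9 genes: the type I receptor genes *Acvr1b* and *Acvr1c*, the type II receptor genes *Acvr2a* and *Acvr2b*, the transducer genes *Smad2*, *Smad3* and *Foxh1*, and the convertase genes *Furin* and *Pcsk6*. The genes were chosen by name for their place in the pathway, and every array probe annotated to them was taken, which gave 18 of the 45281 probes measured and 9 of 19057 genes with a probe. Whole embryos of the C3H/HeH mouse background, collected between E8.0 and E8.5, gave the RNA, with 3 pools homozygous for *iso* (*Zic2* iso/iso) and 3 wildtype pools, each of 8 stage-matched embryos. The *iso* allele, found in a chemical mutagenesis screen, is a point mutation that puts a premature stop codon in the fifth zinc finger of *Zic2* in every cell of the embryo. Both genotypes came from crosses of heterozygous parents, embryos of both sexes were used, and the wildtype embryos served as littermate controls. An Illumina Mouse WG6 v2 array was run for each pool, and the authors' deposited probe intensities were converted to log2 and quantile normalised.

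Nodal is a secreted ligand of the TGFβ superfamily that patterns the early embryo and later specifies left identity in the lateral plate mesoderm. It is made as a precursor that Furin and Pcsk6 (also known as PACE4) cut into the active form. With an EGF-CFC co-receptor it brings together a type II and a type I receptor kinase, the type I kinase phosphorylates Smad2 and Smad3, and these enter the nucleus with Smad4, where the forkhead protein Foxh1 guides them to target genes such as *Nodal* itself and the antagonist genes *Lefty1* and *Lefty2*. Mice without *Acvr2b* show right isomerism, and *Foxh1* and *Smad2* are needed in the early mouse embryo for Nodal responses. The comparison asks whether the genes of this machinery were expressed at other levels in embryos homozygous for *iso*.

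None of the 9 genes, and none of their 18 probes, passed the test between *Zic2* iso/iso and wildtype embryos (limma, Benjamini-Hochberg adjustment over all probes, threshold 0.05), where 0.0442% of all probes (0.0398% lower and 0.00442% higher) and 0.0945% of genes (0.084% lower and 0.0105% higher) did. At an unadjusted p under 0.05, 2 of the 18 probes stood out, *Smad2* lower and *Furin* higher in mutant embryos, against 6.02% of all probes, and so did 2 of the 9 genes, against 7.65% of all genes. The log2 fold changes, *Zic2* iso/iso minus wildtype, ran from -0.28 to 0.15 over the 18 probes with a median of 0.03, and the median over all probes was 0.00026. Of the 18, 7 were negative and 11 positive. In whole embryos, fewer cells of a type and less RNA per cell cannot be told apart, and a difference confined to a small group of cells is diluted by all the others.

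A background level of 7.47 (log2) was set as the 95th percentile of 1605 probes whose genes belong to families with no known use in such embryos (olfactory or vomeronasal receptor, keratin-associated protein and beta-defensin genes). Of the 18 probes, 10 had a mean above it in at least 1 genotype, and they represent 7 of the 9 genes. These 10 had a median log2 fold change of -0.02, with 5 negative and 5 positive. Of the 10, 2 had an unadjusted limma p under 0.05, against 2121 of the 19475 probes above the background level. *Acvr1c* and *Acvr2a* were below it on every probe, in every pool of both genotypes, so that no change could be read for them. Where a gene has several probes, the brightest over all pools stands for it. No background had been taken off the intensities, so a dim probe shows a smaller fold than its transcript.

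*Smad2*, which encodes a receptor-activated transducer, had the largest difference among the 9 genes. Its single probe (ILMN_1228414) read 9.59, 9.76 and 9.77 on the log2 scale in *Zic2* iso/iso pools 1 to 3, against 9.94, 9.90 and 10.11 in wildtype pools 1 to 3. All 3 mutant pools were below all 3 wildtype pools, by a margin smaller than the range within either genotype. The means were 9.70 ± 0.10 in *Zic2* iso/iso embryos and 9.98 ± 0.11 in wildtype embryos (SD, n = 3 pools each), a log2 fold change of -0.28 (standard error 0.08, 95% interval -0.45 to -0.11), or a 1.21-fold lower intensity. This difference had an unadjusted p of 0.0036 from limma, rank 289 among the 45281 probes, and an adjusted p of 0.56, so that it did not pass. The exact two-sided permutation test over pools gave p = 0.1, the smallest that 3 pools against 3 allow. In the intensities as deposited the genotypes overlapped, with 959, 862 and 761 in mutant pools and 911, 995 and 1052 in wildtype pools, so the separation of the pools rests on the normalization between arrays.

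**Figure D1:**
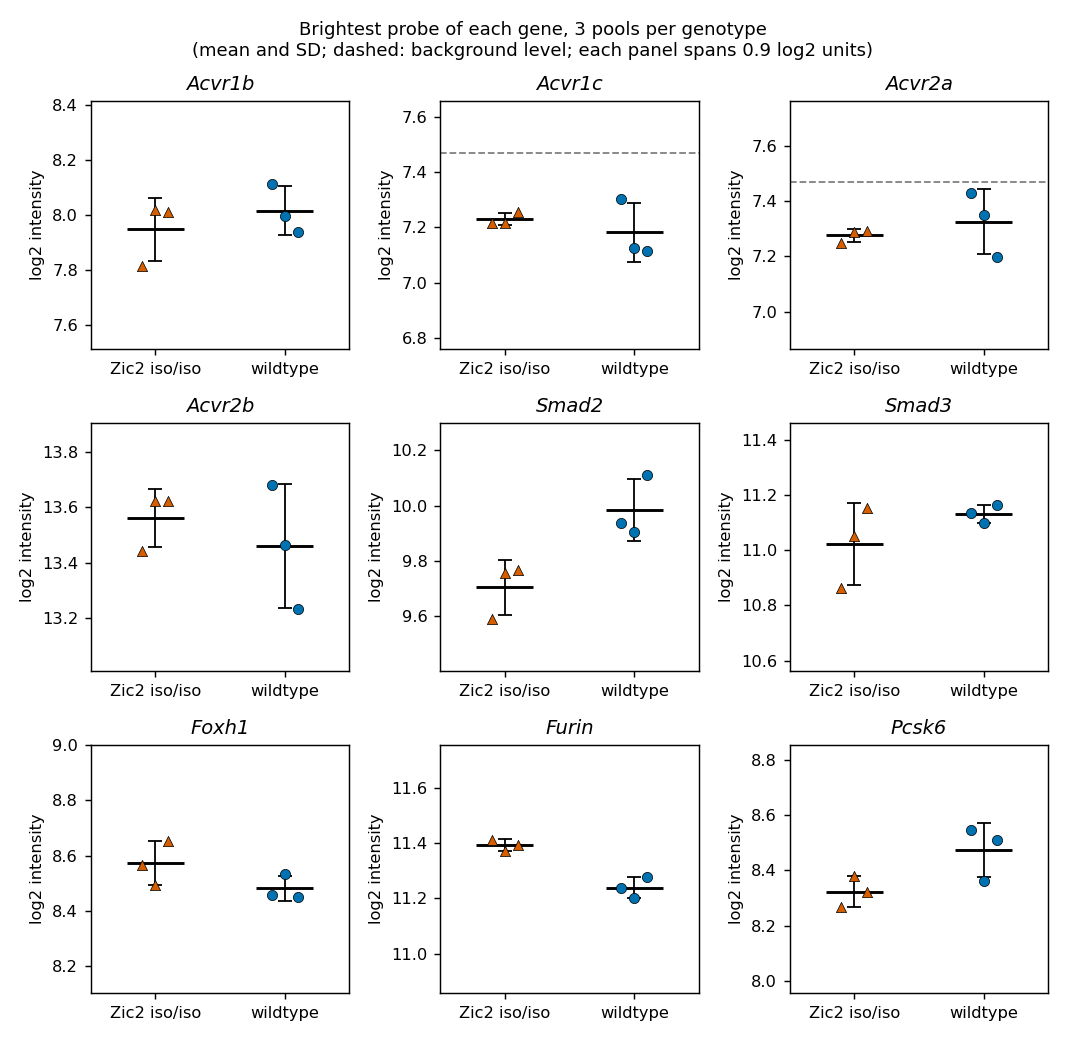
Brightest probe of each of the 9 genes, with log2 intensity after quantile normalization on the vertical axis, in *Zic2* iso/iso (triangles) and wildtype (circles) pools; bars are means, error bars the SD over the 3 pools of a genotype, and a dashed line, where it falls in a panel, marks 7.47, the level of background. For *Smad2* the mutant pools lie below the wildtype pools and for *Furin* above them, while the pools of the other 7 genes overlap.

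*Smad3*, the close relative of *Smad2* with the same place in the pathway, has 2 probes, both well above the background level. The brighter (ILMN_2772582) read 10.86, 11.05 and 11.15 in *Zic2* iso/iso pools, against 11.14, 11.10 and 11.16 in wildtype pools. The mutant pools were spread more widely than the wildtype pools and overlapped with them, with mutant pool 1 the lowest. The log2 fold change was -0.11 (standard error 0.08, 95% interval -0.28 to 0.06, adjusted p = 0.93 from limma). The second probe (ILMN_2938893) had a change of -0.16 (standard error 0.08), with mutant pools at 9.25, 9.14 and 9.48 and wildtype pools at 9.41, 9.43 and 9.50. Here mutant pool 2 was the lowest, so the probes did not single out the same pool.

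*Foxh1*, which encodes the forkhead partner of the Smads, has 2 probes, and neither separated the genotypes. The brighter (ILMN_2968632) read 8.57, 8.49 and 8.65 in *Zic2* iso/iso pools, against 8.46, 8.53 and 8.45 in wildtype pools. Its log2 fold change was 0.09 (standard error 0.07, 95% interval -0.06 to 0.24, adjusted p = 0.94 from limma), and that of the second probe 0.02 (standard error 0.07). The 3 transducer genes together thus had log2 fold changes of -0.28 to 0.09. The Smads were below 0 on all 3 of their probes and *Foxh1* above 0 on both of its own. Among the 95% intervals of these probes, only that of *Smad2* left out 0.

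Among the receptor genes, *Acvr1b* (ALK4), which encodes the main type I receptor for Nodal, was measured above the background level by 1 of its 3 probes (ILMN_2464253). It read 7.82, 8.02 and 8.01 in *Zic2* iso/iso pools, against 8.11, 8.00 and 7.94 in wildtype pools, and the genotypes overlapped. Its log2 fold change was -0.07 (standard error 0.08, 95% interval -0.23 to 0.10, adjusted p = 0.96 from limma). The other 2 probes of *Acvr1b* were below the background level in every pool, with changes of 0.06 each. *Acvr1c* (ALK7), the second type I receptor gene of the pathway, has 1 probe, which read 7.22, 7.22 and 7.26 in mutant pools and 7.30, 7.13 and 7.11 in wildtype pools, all below the background level.

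*Acvr2b*, the type II receptor gene with a known role in laterality, was read by 1 bright probe (ILMN_1230145). It was at 13.44, 13.62 and 13.62 in *Zic2* iso/iso pools, against 13.68, 13.46 and 13.23 in wildtype pools. The genotypes overlapped, and wildtype pool 1 was the highest of all 6. The log2 fold change was 0.10 (standard error 0.10, 95% interval -0.12 to 0.32, adjusted p = 0.96 from limma). The means of *Acvr2a*, its paralogue, were 7.28 ± 0.02 in *Zic2* iso/iso embryos and 7.33 ± 0.12 in wildtype embryos (SD, n = 3 pools each) on the brighter of 2 probes. On the dimmer probe (ILMN_2563120) the mutant pools, at 7.32, 7.32 and 7.31, were all above the wildtype pools, at 7.26, 7.28 and 7.17, but both genotypes were below the background level, so this separation is no reading of the gene.

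*Furin* encodes a ubiquitous convertase of the secretory pathway that cuts precursors after paired basic residues. Its brightest probe (ILMN_3148489) read 11.41, 11.37 and 11.39 in *Zic2* iso/iso pools, against 11.24, 11.20 and 11.28 in wildtype pools. Every mutant pool exceeded every wildtype pool, and the gap between the genotypes was wider than the spread within either. The means were 11.39 ± 0.02 in *Zic2* iso/iso embryos and 11.24 ± 0.04 in wildtype embryos (SD, n = 3 pools each), a log2 fold change of 0.15 (standard error 0.06, 95% interval 0.02 to 0.29), or a 1.11-fold higher intensity. The unadjusted p was 0.029 and the adjusted p 0.79 from limma, and the exact two-sided permutation p was 0.1, the smallest possible. As deposited, the intensities were 3395, 2634 and 2350 in mutant pools and 2224, 2454 and 2393 in wildtype pools, which overlap. A second probe of *Furin* (ILMN_1252364), near the background level, had a change of 0.11 (standard error 0.09) with overlapping pools, and the remaining probe, below it, of 0.0085.

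*Pcsk6*, the convertase gene that acts beside *Furin* on Nodal in the early mouse embryo, was lower in mutant embryos by about as much, and also did not pass. Its brightest probe (ILMN_2637094) read 8.27, 8.38 and 8.32 in *Zic2* iso/iso pools, against 8.55, 8.36 and 8.51 in wildtype pools. Mutant pool 2 was just above wildtype pool 2, so the genotypes overlapped. The log2 fold change was -0.15 (standard error 0.07, 95% interval -0.30 to 0.0036, unadjusted p = 0.055 and adjusted p = 0.84 from limma). Its 2 other probes, whose means were under the background level in either genotype, had changes of 0.05 and -0.08.

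**Figure D2:**
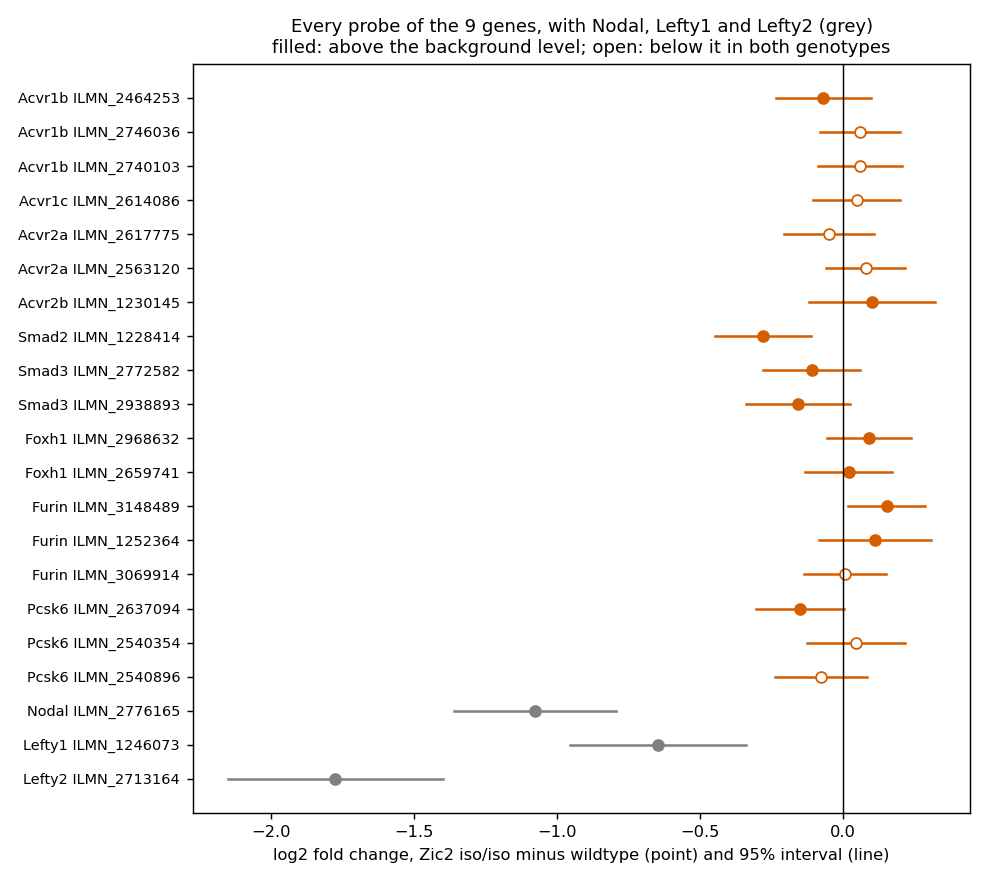
Log2 fold change, *Zic2* iso/iso minus wildtype (horizontal axis), of each of the 18 probes with its 95% interval from limma; filled points are above the background level, open points below it in both genotypes, and *Nodal*, *Lefty1* and *Lefty2* are drawn in grey. The intervals of the 18 probes lie between -0.45 and 0.32, and those of *Smad2* and of the brightest *Furin* probe leave out 0.

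Counted over all probes of the 9 genes, 3 of 18 had mutant and wildtype pools that did not overlap (*Smad2* lower, and *Furin* and the dim *Acvr2a* probe higher), against 10.6% of all probes (5.46% lower and 5.18% higher). By genes it was 2 of 9, against 10.9% of all genes (6.24% lower and 4.67% higher). The intervals of the fit bound the change in intensity at these probes, not that of the transcript, since no background had been taken off. Probes not above the background level bound nothing about their gene. The intervals reached no lower than -0.45 and no higher than 0.32 on the log2 scale of intensity. In the same pools *Nodal* had a log2 fold change of -1.07 (95% interval -1.36 to -0.79) and *Lefty2* of -1.77 (95% interval -2.15 to -1.40). All 3 mutant pools of *Lefty2* were below the background level (mean log2 level 7.18 in *Zic2* iso/iso and 8.96 in wildtype embryos). As measured, its intensity was 3.42-fold lower in mutant embryos, or 2.80-fold lower with the background level put in place of the mutant mean. The smallest change among the 20 probes that passed the test was 0.51 in size, larger than the end of any of the 18 intervals.

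Related genes with the same role were then set against each other pool by pool, as the difference of their log2 values. Of 4 such comparisons, those of *Acvr1b* with *Acvr1c* and of *Acvr2a* with *Acvr2b* could not be read, since 1 gene of each was below the background level. The *Smad2* value less that of *Smad3* differed by -0.17 between *Zic2* iso/iso and wildtype pools (log2 fold changes of -0.28 and -0.11), and the pool differences did not overlap between the genotypes. For *Furin* less *Pcsk6* the difference was 0.30 (0.15 and -0.15), also without overlap. The exact two-sided permutation p was 0.1 for each, and 0.13 after Benjamini-Hochberg adjustment over all 4 comparisons. The pools of *Smad2* and of *Furin* were already apart by themselves, and the share of other gene pairs without overlap was not counted. With the mean of a gene's probes the difference for *Furin* less *Pcsk6* was 0.15, and for both pairs p was 0.2. With 3 pools against 3 these comparisons cannot reach 0.05.

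**Figure D3:**
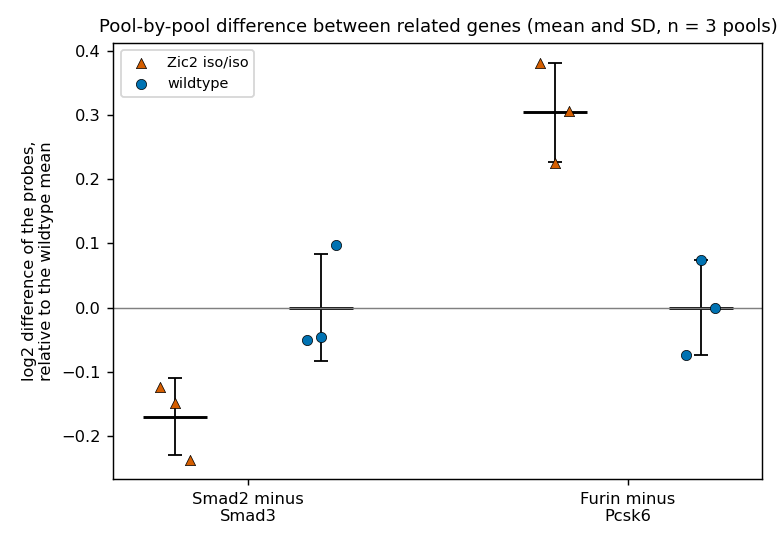
Difference between the log2 values of the brightest probes of 2 related genes in each pool, relative to the wildtype mean (vertical axis), for *Furin* minus *Pcsk6* and *Smad2* minus *Smad3* in *Zic2* iso/iso (triangles) and wildtype (circles) pools; bars are means and error bars the SD of 3 pools. The mutant pools lie above the wildtype pools for *Furin* minus *Pcsk6*, by 0.30 on average, and below them for *Smad2* minus *Smad3*, by 0.17.

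Because *Furin* can be transcribed from several start sites, the array probes do not say which of them carries its signal. The 250 bases before its 2 RefSeq start sites (GRCm38.p6, minus strand, written 5′ to 3′ in the direction of transcription) are shown since they differ in kind. The upstream one, at chr7:80405437-80405686, has a GC content of 50.4% and a TATAAA that begins 23 bases before the start, in capitals, and the other, at chr7:80402813-80403062, has a GC content of 83.2% and none.
Furin, upstream start: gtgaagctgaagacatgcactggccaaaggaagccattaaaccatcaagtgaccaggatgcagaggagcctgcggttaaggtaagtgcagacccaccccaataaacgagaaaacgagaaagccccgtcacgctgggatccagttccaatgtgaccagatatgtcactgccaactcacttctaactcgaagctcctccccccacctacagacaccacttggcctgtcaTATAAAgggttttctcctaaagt
Furin, downstream start: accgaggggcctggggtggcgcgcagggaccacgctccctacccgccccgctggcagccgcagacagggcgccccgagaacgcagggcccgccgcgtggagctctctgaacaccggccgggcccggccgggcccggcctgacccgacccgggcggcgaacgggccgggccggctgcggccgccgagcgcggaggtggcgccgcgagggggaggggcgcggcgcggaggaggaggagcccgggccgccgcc
A TATAAA on either strand is in 12.4% of the 32851 mouse promoters of that table and in this 1 of the 9 start sites found for 7 of the genes (*Smad2* and *Foxh1* are left out here). The forkhead sequence TGTNNATT bound by Foxh1 is in none of the 9 (10.9% of all promoters), nor is GTCTNGAC (1.47%), a loose form of the paired Smad box, or CAGCAGG (8.44%), the core of a Zic site, on either strand. Those letters are not in these windows, which says nothing of binding elsewhere. The ZIC2 sites that the paper gives for a *Nodal* enhancer lack CAGCAGG as well, so this search would miss sites of their kind.

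The other genes of the pathway were taken from lists written from general knowledge. Of 54 genes, 47 had a probe and 34 of these were above the background level. Among the 47, 2 fell (*Nodal* and *Lefty2*, adjusted p = 0.0075 and 0.0019 from limma), none rose and 45 did not pass, with a median log2 fold change of -0.0061, against -0.0038 over all genes. The calls came from 1 list, that of ligands, co-receptors and antagonists, in which 6 of 11 measured genes were above the background level. All 6 had a negative change, against 5697 of the 10845 genes above that level, and of these *Lefty1* was at -0.64 (adjusted p = 0.27). The paper names *Nodal*, *Lefty1* and *Lefty2* as lower in these arrays, so this count is no independent reading of the list. *Gdf1*, which encodes the co-ligand of Nodal, was at -0.0088, and the co-receptor genes *Tdgf1* and *Cfc1* were below the background level.

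In the lists of the kinases, Smads and nuclear factors around the 9 genes, none passed. Of 5 further type I receptor genes, the largest change was that of *Acvr1*, a receptor gene of BMP signals, at 0.12 (standard error 0.07, adjusted p = 0.90 from limma), and of 3 type II receptor genes that of *Tgfbr2* at -0.11. Of 5 other Smad genes measured, it was that of *Smad6*, an inhibitor of BMP signalling, at 0.25 (standard error 0.07, adjusted p = 0.58), and its mutant pools, as those of *Acvr1*, lay above the wildtype pools without overlap. *Smad4*, the common partner of Smad2 and Smad3, was not analysed here. Among 11 measured regulators and corepressors of Smads, the largest change was that of the ubiquitin ligase gene *Wwp2* at -0.19, among 7 nuclear partners that of the acetyltransferase gene *Ep300* at 0.16, and among 5 other convertase genes that of *Mbtps1*, the site-1 protease gene, at 0.09. None of these had an adjusted p under 0.58.

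**Figure D4:**
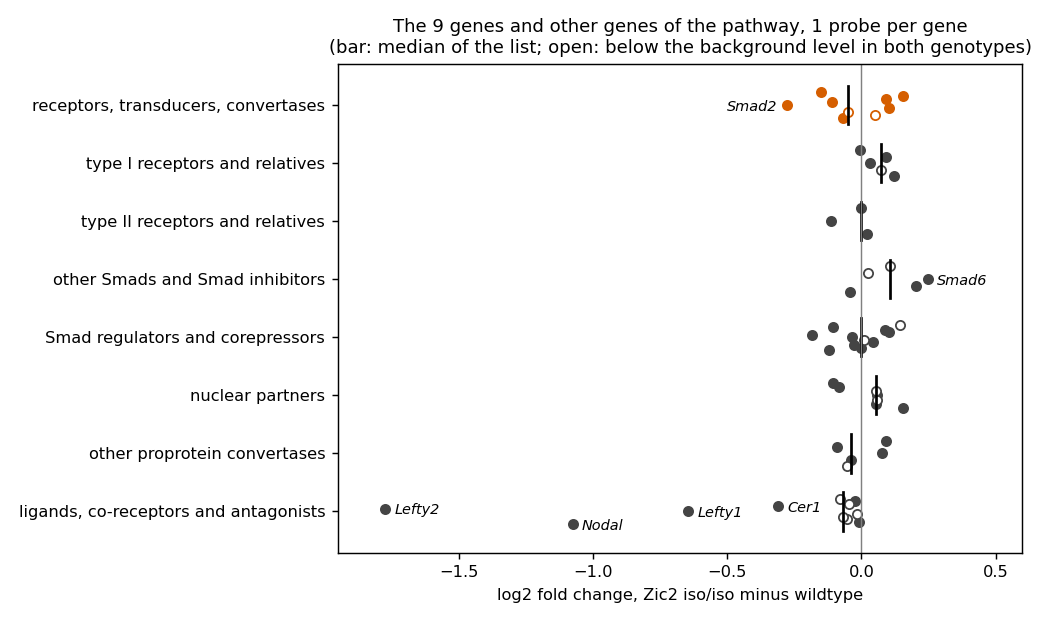
Log2 fold change, *Zic2* iso/iso minus wildtype (horizontal axis), of the brightest probe of each of the 9 genes (orange) and of 47 other genes of the pathway by list; vertical bars are the medians of the lists and open points are below the background level in both genotypes. *Lefty2*, *Nodal* and *Lefty1* stand apart at -1.77, -1.07 and -0.64, and the 9 genes lie between -0.28 and 0.15.

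Since *Smad2* had the largest change relative to its error among the 9 genes, the genes most like it in pattern over the 6 pools were listed from 16550 probes above the background level with a gene name. They were *Guk1*, *Phldb1*, *Bloc1s5*, *Zfp41* and *Ift52*, with Pearson's r of 0.998, 0.997, 0.994, 0.992 and 0.990 over 6 pools. Their log2 fold changes were -0.22, -0.17, -0.12, -0.19 and -0.29, and none passed the test (adjusted p of 0.41 to 0.90 from limma). This r is a description, picked as the highest of many over 6 pools that share their arrays and normalization.

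Between pools r was 0.993 to 0.995 across all probes, a value that the wide range of levels between probes keeps high. *Zic2* itself was read by 2 probes, both with overlapping pools. The brighter was at 7.64, 7.57 and 8.01 in mutant and 8.27, 8.06 and 8.00 in wildtype pools. Its log2 fold change was -0.37 (standard error 0.11, adjusted p = 0.61 from limma). The dimmer, near the background level, had a change of 0.12. Neither probe checks a label, since *iso* is a point mutation. None of the 9 genes lies on chromosome 14, which carries *Zic2*. Markers above the background level were 7 of 7 for node and midline, 6 of 6 for heart, 7 of 7 for yolk sac and visceral endoderm, 5 of 6 for lateral plate mesoderm, 5 of 6 for primitive blood, 4 of 7 for somites, 3 of 4 for trophoblast and decidua, and 2 of 6 for neural plate, where *Sox1*, *Pax6*, *Pax3* and *Six3* were below it.

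Some of these tissue markers differed in the same pools. The mean log2 level of the node and midline markers was 7.82 to 7.90 in mutant pools and 8.14 to 8.23 in wildtype pools. Among these markers 6 of 7 changes were negative. *Shh*, *Chrd* and *Dynlrb2* fell (log2 fold changes of -0.86, -0.52 and -0.69), while *Foxj1* and *Noto* were at -0.02 and 0.0018. *Noto* was close to the background level in both genotypes (mean 7.48 in each), where a change could hardly be read. The paper names the genes that fell as changed in these arrays, so this list mean is no independent reading of the tissue. The mean of the somite markers was 7.99 to 8.18 in mutant pools and 8.19 to 8.29 in wildtype pools. Here 4 of 7 changes were negative, of which *Tcf15*, *Foxc2* and *Meox1* were at -0.52, -0.36 and -0.28, and none passed. Heart markers, at 9.48 to 10.22 in mutant and 10.21 to 10.50 in wildtype pools, just overlapped, and 6 of 6 had a negative change. For each of them mutant pool 3 was the lowest of all pools. *Actc1*, for example, was at 11.75, 12.15 and 10.83 in mutant pools 1 to 3, against 12.36, 11.95 and 12.40 in wildtype pools 1 to 3. Primitive blood markers also had 6 of 6 negative changes, that of *Gata1* below the background level, but the mutant pools were far apart. The embryonic globin gene *Hbb-bh1* was at 12.87, 10.75 and 9.04 in mutant pools 1 to 3, against 11.55, 11.74 and 12.17 in wildtype pools 1 to 3. Over all 19057 genes, 9894 changes were negative and 9163 positive. Yolk sac and visceral endoderm markers, at 10.65 to 11.12 in mutant and 10.47 to 10.87 in wildtype pools, overlapped, and 7 of 7 had a positive change, that of *Apob* being 0.50 without overlap (adjusted p = 0.15 from limma). The part of these tissues, or of a small difference in stage, in the values of *Smad2*, *Furin* or *Pcsk6* was not tested.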

How the data were processed

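RNA from 6 pools of whole mouse embryos (3 *Zic2* iso/iso, 3 wildtype, 8 embryos each) had been hybridised to Illumina Mouse WG6 v2 arrays. The intensities that the authors deposited are on a linear scale (lowest 104 to 122, medians 154 to 187 per array), not background-subtracted and not normalised between arrays, although the methods name a variance stabilising normalisation. Intensities were floored at 1, converted to log2 and quantile normalised, and all 45281 probes were fitted with limma 3.58.1 in R 4.3.3 (lmFit and eBayes, no covariates), with Benjamini-Hochberg adjustment over all probes. Pools were taken as separate samples, by their labels. The limma p-values rest on the spread between these pools, drawn towards a variance common to all probes. No filter on dim probes was applied.

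Symbols came from the platform annotation of the array, updated by gene identifier through a RefSeq table of GRCm38.p6 (34885 probes with 1 symbol, 18 with several, 10378 with none). Promoter sequences are RefSeq's, GRCm38.p6. The genes and lists were chosen with earlier results of these data known. Named were all 9 genes with every probe, list genes past the threshold or with the largest change of their list, and the 5 probes most like the leading gene; *Lefty1*, *Gdf1*, *Tdgf1*, *Cfc1* and the tissue markers were added after their values were seen. The steps were tested on simulated data. Alternatives were other normalizations, a rewritten variance stabilising normalisation, normexp (offset 50), a filter on dim probes, an intensity trend, a robust prior, array weights, pools left out in turn, the replicate number as a block, averaged probes and a threshold of 0.10.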

Additional observations from a re-analysis of the deposited data

How the results depend on the processing

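No probe and no gene of the 9 passed the test under any alternative run, the threshold of 0.10 included, and 0 to 3 of the 18 probes had an unadjusted p under 0.05. Over all probes 20 passed (18 lower, 2 higher), against 4 without normalization between arrays (3 lower, 1 higher), 11 with arrays centred on the median, 31 with an intensity trend, 13 of 29453 with the mean of a gene's probes and 34 at the threshold of 0.10, and 24 (19 lower, 5 higher) with either normexp or the variance stabilising normalisation; leaving out a pool gave 14 to 29. *Smad2* kept a negative change (-0.32 to -0.20, adjusted p of 0.38 to 1.00 over 16 alternatives), as did *Smad3* (-0.17 to -0.03) and *Pcsk6* (-0.20 to -0.06), and *Furin* (0.09 to 0.23), *Foxh1* (0.05 to 0.18; 0.05 without *Zic2* iso/iso replicate 3) and *Acvr1c* (0.01 to 0.11, below the background level; 0.11 without wildtype replicate 1, 0.01 without wildtype replicate 3 and 0.02 without wildtype replicate 2) kept a positive one. Directions turned in 5 of 142 values, all near 0. The filter on dim probes, intensity trend, robust prior and replicate block leave the fold change itself unaltered. In those runs no direction could turn, nor could it with averaged probes for a gene with a single probe. *Acvr1b* was at 0.00885 without normalization between arrays and at 0.017 with the mean of its probes, *Acvr2a* at 0.016 with the mean of its probes and from -0.11 to 0.0029 when each pool was left out in turn (above 0 without wildtype replicate 1), and *Acvr2b* from -0.0089 to 0.22 when each pool was left out (below 0 without wildtype replicate 3). The cause was not tested. For *Furin* and *Pcsk6*, averaging with the dim probes brought the change to 0.09 and -0.06. The differences for *Smad2* less *Smad3* (-0.20 to -0.12) and *Furin* less *Pcsk6* (0.15 to 0.35) kept their sign, but with the mean of a gene's probes that of *Furin* and *Pcsk6* came to 0.15 and the exact permutation p to 0.2 for both.

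Of the other pathway genes 2 passed, against 1 without normalization between arrays (*Lefty2*), with arrays centred on the median (*Lefty2*), with a robust prior (*Nodal*) and with the mean of a gene's probes (*Lefty2*), and 1 to 3 when each pool was left out (1 without *Zic2* iso/iso replicate 2, *Lefty2*; 3 without wildtype replicate 1, with *Lefty1*). It was 3 with an intensity trend. With the replicate block 0 of the 9 genes passed and 17 probes in all, in place of 20. Same-numbered pools did not deviate together (r of -0.12, -0.02 and -0.12), and no pool correlated best with its own number, so the numbers were not taken as pairs. The number of arrays, 3 per genotype, and the unsubtracted background limit what could be read: 8 of the 18 probes were not above the background level.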
